A study of Drosophila melanogaster with 3 samples.

Results

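Translation factors and aminoacyl-tRNA synthetases were compared in larvae of Drosophila melanogaster that differ in the number of X chromosomes. Members were all genes whose deposited name starts with Aats- (tRNA synthetases), eIF (initiation factors), Ef1 (elongation factor 1) or eRF (release factors). The name rule found 54 genes with 107 transcripts. The transcript with the highest mean over the 3 groups stood for its gene, and a mean of at least 1 count per 1000000 transcript counts (CPM) was required, which left 53 of the 10942 genes kept by the same minimum. Of these 53, 8 were X-linked and 45 autosomal. The 1 gene left out was eIF4E-6, with 0.263 CPM in females, 1.18 in males and 0.0502 in metafemales (mean 0.498). The members nearest to the minimum on its other side were Aats-pro (mean 3.04 CPM), Aats-met (3.64) and eIF4E-7 (3.81).

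RNA came from larvae of the third instar, with no dissection named, in 3 groups: females with an ordinary X pair, males with an X and a Y, and metafemales, which carry an additional X beside diploid autosomes. Each group is given in the labels by sex alone, as 3 biological repeats, with stocks at 20 degrees for all groups, and no strain or allele is named. The authors deposited 1 column per group, so levels below are pooled values and differences have no replicate check. The exceptions are a few low values from which counts per library were recovered. Intervals at 95% cover counting error only.

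Translation starts when eIF2 brings the initiator tRNA to the small ribosomal subunit and the eIF4 factors bring the capped mRNA, with eIF3 as scaffold. Elongation factor 1 then delivers tRNAs that synthetases have charged with amino acids, and release factors end the chain at a stop codon. In larvae, whose growth rests on protein synthesis, these genes are expressed in nearly all cells, and some have paralogs used in the male germ line.

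The pooled libraries had inferred totals of 65.6 to 89.2 M counts (M stands for 1000000) per female library, 31.6 to 92.4 M per male library and 69.0 to 112 M per metafemale library. For the 151 member levels of at least 1 CPM, the half-width of the counting interval was 0.146% to 9.40% of the level. The sexes matched their labels: the male dosage compensation RNAs roX1 and roX2 summed to 439 CPM in males, 20.9 in females and 17.8 in metafemales. In a list of 15 testis genes, 15 were at least 2-fold higher in males, with sums of 1414 CPM in males against 15.2 and 10.1, and no testis gene was listed at 0. The 6 salivary glue genes, which mark the end of larval life, summed to 10338 CPM in females, 15087 in males and 1799 in metafemales, and 5 of the 6 were at least 2-fold lower in metafemales than in females. The part of this difference in the results below was not tested.

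Log2 ratios were taken on value + 1 CPM, and a member was called higher or lower at 2-fold on this measure. Ratios and folds printed with an interval are of the levels themselves, without the added 1 CPM. Metafemale values depend on scaling. Against females the median of all genes was -0.22 as deposited. Median-of-ratios scaling moved it by 0.24 and scaling to the autosomal median moved it by 0.26. Against males it was -0.40, and the same scalings moved it by 0.39 and 0.50. In males against females it was -0.04 and moved by -0.03 and 0.01. Where both scalings are given below, the median-of-ratios value stands first.

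**Figure D1:**
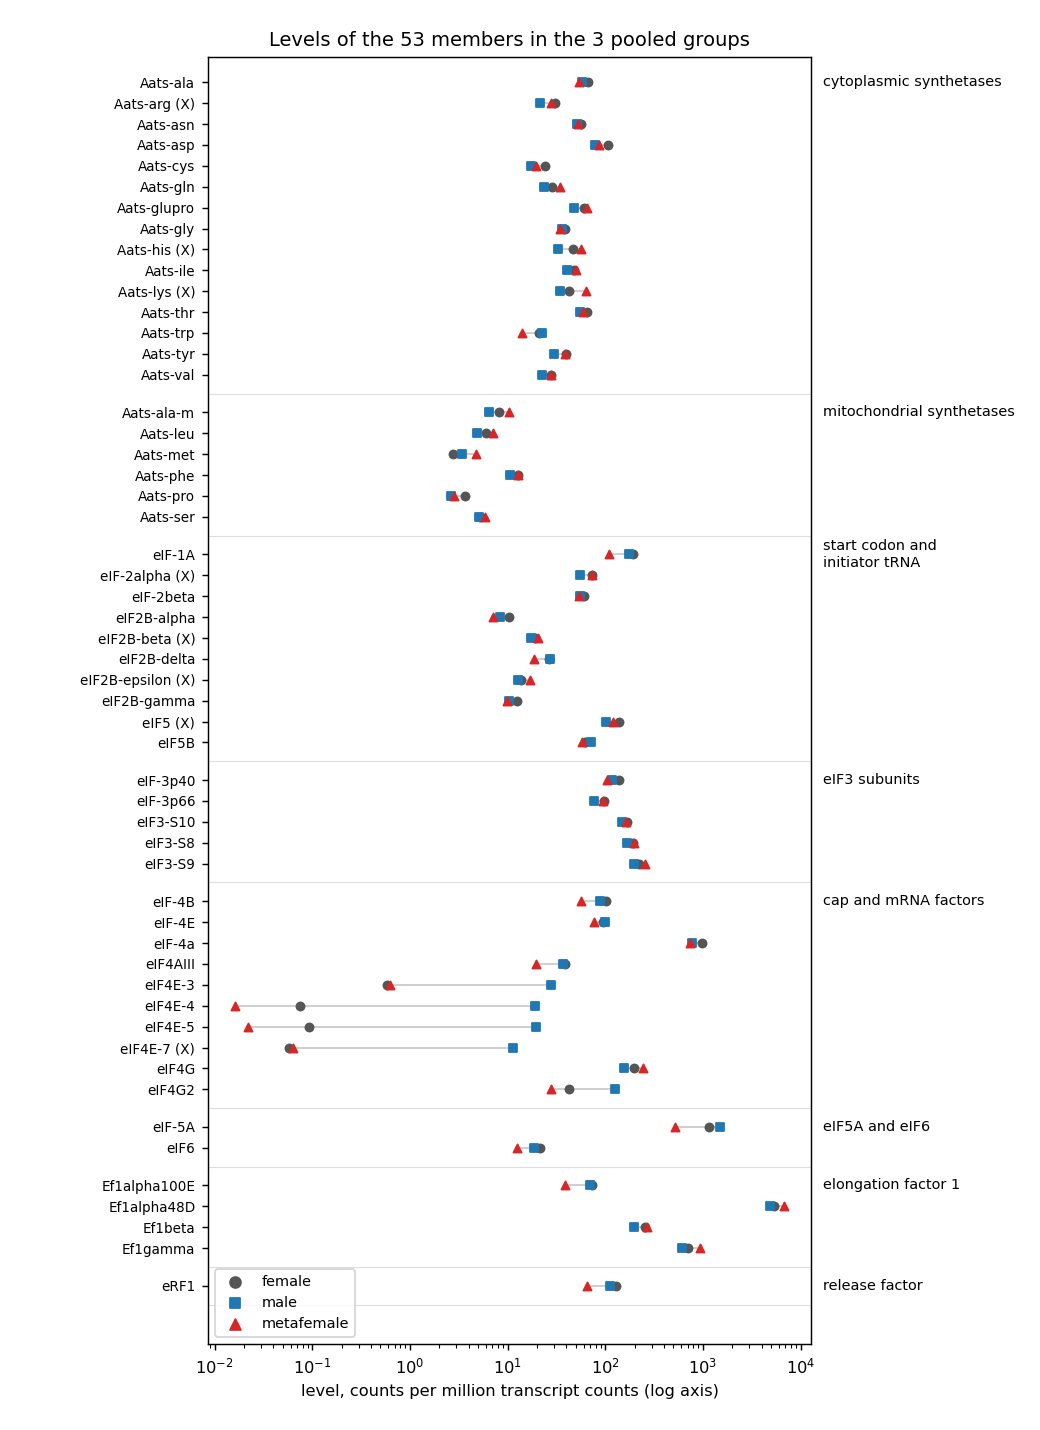
Level of each of the 53 members in females (circles), males (squares) and metafemales (triangles), in CPM on a log axis, grouped by role, with (X) after X-linked genes. Most members lie close together, whereas eIF4E-3, eIF4E-4, eIF4E-5 and eIF4E-7 reach 11.3 to 27.8 CPM in males and stay below 1 CPM in the other groups.

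Few members were 2-fold apart between metafemales and females. Against females, 0 of 53 members were at least 2-fold higher in metafemales and 1 was lower, where 4.81% and 10.9% of all kept genes were. With median-of-ratios scaling 0 were higher and 0 lower, against 8.91% and 4.36% of all genes, and with autosomal scaling 1 and 0, against 9.33% and 4.0%. With a 1.5-fold threshold 1 member was higher and 8 were lower, against 9.34% and 27.6% of all kept genes. Above 0 were 19 of 53 members, against 28.7% of all genes. The median of the members was -0.10, above the median of all genes (-0.22), and it turned positive under both other scalings (0.27 and 0.31). Single members lay between -1.15 (eIF-5A) and 0.63 (Aats-met).

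The 21 synthetases were centred near 0. Their metafemale to female median was -0.02 (0.38 and 0.42 with the other scalings), 9 were above 0 and 12 below, and all 21 were within 2-fold as deposited (20 with autosomal scaling, where Aats-lys passed it). By current RefSeq symbols 15 of them act in the cytoplasm and 6 in mitochondria. The mitochondrial ones had a median of 0.16 and the cytoplasmic ones of -0.11, which became 0.52 and 0.30 with median-of-ratios scaling and 0.56 and 0.35 with autosomal scaling. Aats-met, by its current symbol the mitochondrial methionine enzyme, had the highest metafemale to female ratio of all members, at 2.73 CPM in females, 3.41 in males and 4.78 in metafemales (1.75-fold higher in metafemales than in females, 1.59 to 1.93).

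For alanine both enzymes are members. The cytoplasmic Aats-ala had 66.3 CPM in females, 57.8 in males and 53.4 in metafemales, a metafemale to female log2 ratio of -0.31 (0.10 and 0.15 with the other scalings). The mitochondrial Aats-ala-m had 8.11, 6.53 and 10.4 CPM and a ratio of 0.33 (0.70 and 0.74). So the mitochondrial gene stood above the cytoplasmic one in this comparison, and both were lower in males than in females. Aats-trp, which charges tRNA with tryptophan, had 21.1 CPM in females, 22.5 in males and 14.2 in metafemales. Its metafemale to female log2 ratio of -0.54 was the lowest of the synthetases, but its other transcript was at -0.25, above Aats-ala, Aats-asp and Aats-cys, so that this rank rests on the transcript chosen.

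Of the elongation factor 1 genes, 3 had more signal in metafemales and the paralog had less. Ef1alpha48D, the main gene of the subunit that carries charged tRNA to the ribosome, had 5359.9 CPM in females, 4925 in males and 6737 in metafemales. Its metafemale to female ratio was 1.26 (1.25 to 1.26). Ef1gamma, a subunit of the exchange complex that reloads it with GTP, had 697, 605 and 935 CPM, a ratio of 1.34 (1.33 to 1.35). The exchange subunit gene Ef1beta had 254, 196 and 267 CPM, a ratio of 1.05 (1.04 to 1.06). In all 3 the order was metafemale, female, male. The paralog Ef1alpha100E had less signal in metafemales, with 73.5 CPM in females, 69.5 in males and 39.1 in metafemales, 1.88-fold lower than in females (1.83 to 1.93), and it stayed below females under both other scalings (log2 -0.49 and -0.44).

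eIF-5A was the 1 member past 2-fold between metafemales and females on value + 1 CPM. Without the added 1 CPM, eIF4E-4 was 4.61-fold lower in metafemales (1.65 to 20.7) and eIF4E-5 4.25-fold lower (1.63 to 12.6). Their metafemale levels rest on 4 and 6 counts. The protein of eIF-5A, now classed as an elongation factor, helps ribosomes past difficult peptide bonds. It had 1146 CPM in females, 1511 in males and 516 in metafemales, 2.22-fold lower in metafemales than in females (2.21 to 2.24) and 2.93-fold lower than in males (2.91 to 2.95). The log2 ratio to females was -1.15 as deposited and -0.74 and -0.69 with the other scalings, so the 2-fold call depends on scaling while the sign does not.

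Next to it stood eRF1, which recognises stop codons, with 129 CPM in females, 113 in males and 64.9 in metafemales. It was 1.98-fold lower in metafemales than in females (1.94 to 2.02). eIF4AIII, an RNA helicase of the exon junction complex, had 38.4, 36.7 and 19.7 CPM and was 1.95-fold lower (1.89 to 2.02). The remaining members lower by 1.5-fold, apart from eIF-5A and Ef1alpha100E, were eIF-4B (log2 -0.84), eIF-1A (-0.83), eIF6 (-0.75) and eIF4G2 (-0.60). With both other scalings these genes, Ef1alpha100E, eRF1 and eIF4AIII had negative log2 ratios to females, between -0.57 and -0.15. The scalings shift log2 ratios of this comparison by at most 0.41 and 0.46, less than a 1.5-fold step. The kept sign of all these genes and of eIF-5A thus follows from the 1.5-fold choice.

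Subunits of the eIF3 scaffold differed among themselves. The 5 in the name rule had metafemale to female log2 ratios from -0.40 (eIF-3p40) to 0.21 (eIF3-S9), and the median, -0.01, moved to 0.40 and 0.45 when rescaled. Levels of eIF3-S9 were 222 CPM in females, 196 in males and 257 in metafemales. Those of eIF3-S8 were 193, 169 and 199, and those of eIF3-S10 were 166, 149 and 165. eIF-3p66 had 96.5, 76.2 and 94.0 CPM, and eIF-3p40 had 139, 117 and 105. All 5 genes were lower in males than in females under each scaling, with log2 ratios of -0.34 to -0.15 as deposited. Subunits outside the name rule reached lower metafemale to female ratios as deposited, with eIF3k (CG10306) at -1.14, eIF3i (Trip1) at -0.76, eIF3f1 (CG9769) at -0.74 and eIF3j (Adam) at -0.52. The others were eIF3e (Int6) at -0.26, eIF3g1 (CG8636) at -0.17, eIF3l (CG5642) at 0.02 and eIF3m (Tango7) at 0.13, beside paralogs high in males.

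Among factors that bring mRNA to the ribosome, the general ones lay apart in metafemales. The scaffold gene eIF4G, on chromosome 4, had 197 CPM in females, 157 in males and 247 in metafemales, a metafemale to female ratio of 1.25 (1.24 to 1.27). The helicase gene eIF-4a had 981, 781 and 735 CPM, a ratio of 0.749 (0.745 to 0.754), and its log2 ratio of -0.42 moved to -0.0031 and 0.04 with the other scalings. The main cap-binding gene eIF-4E had 95.2, 98.5 and 76.0 CPM, a log2 ratio of -0.32 that turned to 0.09 and 0.13. eIF-4B, a cofactor of the helicase, had 101, 88.4 and 56.0 CPM.

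**Figure D2:**
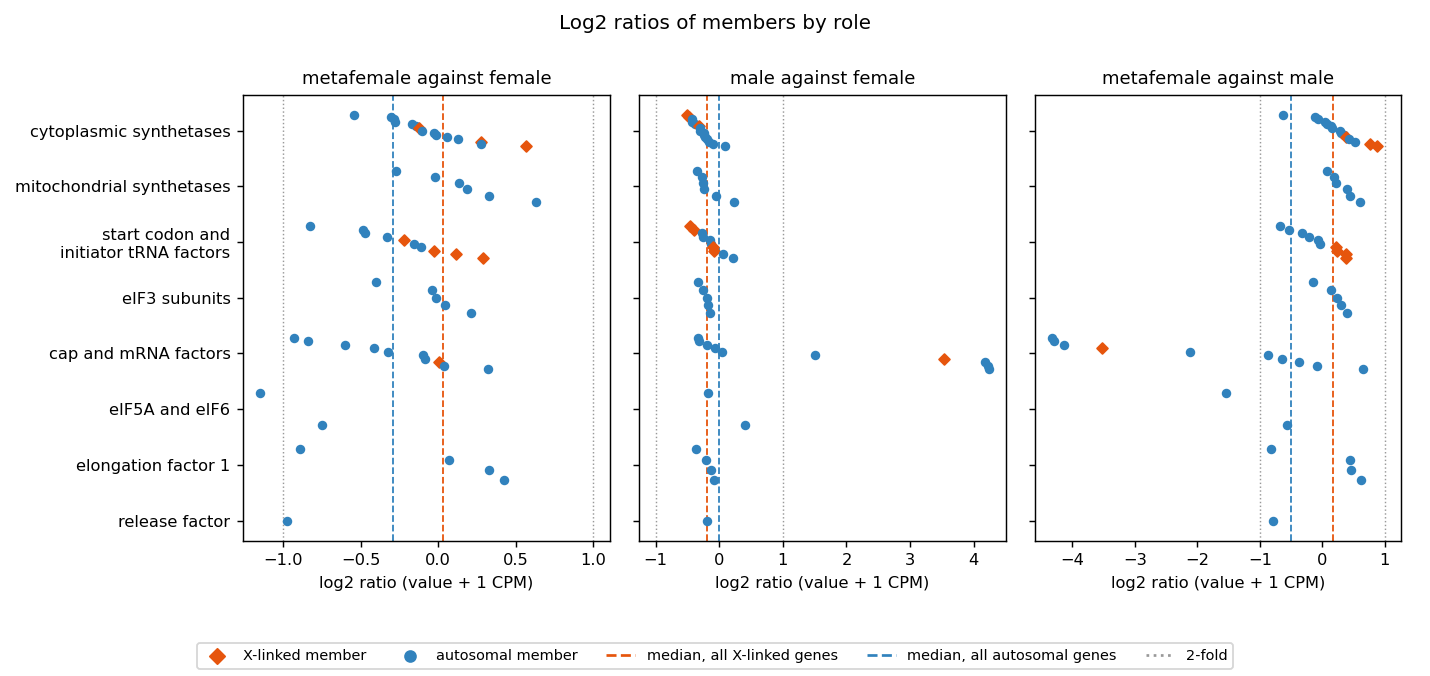
Log2 ratios of the 53 members on value + 1 CPM for each comparison, by role, with X-linked members as diamonds and autosomal ones as circles. Dashed lines mark the medians of all X-linked and all autosomal genes and dotted lines 2-fold. As deposited, eIF-5A lies below the 2-fold line in metafemales and 5 cap and mRNA factors lie above it in males.

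Most members were slightly lower in males than in females, while 5 cap and mRNA factors were higher, 4 of them kept through the male value alone. At 2-fold 5 of the 53 were higher and 0 were lower, against 15.3% and 1.96% of all kept genes. The 5 were eIF4E-3, eIF4E-4, eIF4E-5, eIF4E-7 and eIF4G2. The eIF4E paralogs among them reached the minimum of 1 CPM through the male value alone, so that they had to differ, and their count is a description.

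eIF4E-3, a cap-binding protein needed for male meiosis in Drosophila, had 0.588 CPM in females, 27.8 in males and 0.633 in metafemales. It was 47.3-fold higher in males than in females (39.6 to 56.4). eIF4E-4 had 0.0754, 19.1 and 0.0164 CPM, a male to female ratio of 253 (158 to 435). eIF4E-5 had 0.0932, 19.6 and 0.0220 CPM, a ratio of 211 (138 to 341). The X-linked eIF4E-7 had 0.0583, 11.3 and 0.0629 CPM, a ratio of 194 (115 to 370). These values describe genes that the minimum selected by their male level. The testis genes listed above were higher in males too, and the part of testis tissue in this difference was not tested. In bulk RNA, more cells of a type and more RNA per cell cannot be told apart.

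eIF4G2, the germline partner of these cap-binding proteins known as off-schedule in Drosophila, was not limited to males. It had 43.0 CPM in females, 125 in males and 28.1 in metafemales, 2.90-fold higher in males than in females (2.83 to 2.97). In metafemales it was 1.53-fold lower than in females (1.49 to 1.58). The general genes did not share this pattern: eIF-4E was 1.03-fold higher in males (1.01 to 1.06) and eIF4G was 1.25-fold lower (1.23 to 1.27).

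**Figure D3:**
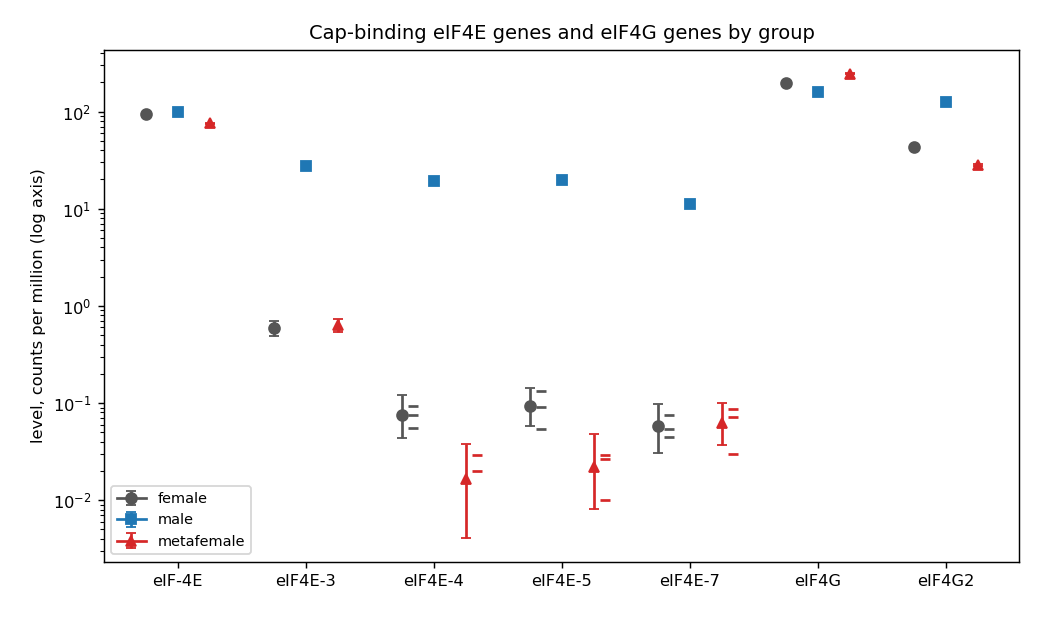
Pooled levels of the cap-binding genes and both eIF4G genes by group in CPM on a log axis, with 95% counting intervals. Short dashes to the right of a symbol are the levels in single libraries where these could be recovered, of which 1 metafemale library of eIF4E-4 is at 0 and not drawn. The 4 paralogs eIF4E-3 to eIF4E-5 and eIF4E-7 are high in males only, eIF4G2 is highest there, and eIF-4E and eIF4G lie within 2-fold between all groups.

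The low values of these paralogs also gave counts in single libraries, since a pooled value this small can be split into whole counts of 3 libraries in 1 way only (relative tolerance 6e-06). Libraries are named by depth, the deepest first, because the labels do not tie them to a repeat. In females eIF4E-4 had 5, 7 and 5 counts, eIF4E-5 had 12, 4 and 6, and eIF4E-7 had 4, 4 and 5. The female signal therefore came from all 3 libraries and not from a single one. In metafemales the counts were 0, 2 and 2 for eIF4E-4, 3, 1 and 2 for eIF4E-5 and 8, 3 and 6 for eIF4E-7.

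In CPM, the female libraries of eIF4E-4 lay between 0.0560 and 0.0941 and the metafemale ones between 0 and 0.0290. For eIF4E-5 they lay between 0.0538 and 0.135 and between 0.01004 and 0.0290. Female and metafemale libraries thus did not overlap for these genes. For eIF4E-7 they did, at 0.0448 to 0.0762 and 0.0301 to 0.0869. eIF4E-6, which missed the minimum, had 14, 21 and 23 counts in females and 7, 3 and 4 in metafemales, again without overlap in CPM (0.157 to 0.351 and 0.0301 to 0.0627). The share of all low genes whose libraries lie apart in this way was not counted, so the lack of overlap is a description. Libraries of 3 against 3 cannot reach an exact permutation p below 0.10, so no p is given. For eIF4E-3 the split was not unique, with 14 combinations in females and 33 in metafemales.

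Without these 5 genes, a set chosen after their values were seen, 42 of the remaining 48 members were lower in males than in females. Their log2 ratios ran from -0.51 to 0.40 around a median of -0.21 (rescaled -0.25 and -0.20). The median of all genes, with male-high genes kept, was -0.04, and 46.3% were above 0. Their like set is all 53 members, with a median of -0.19 and 11 above 0. All genes without those high in males by the same rule had medians by transcript length only. These were 0.12 under 1000 bases, -0.16 at 1000 to 2000 bases and -0.12 from 2000 bases. Of the 48 members, the 6 above 0 were eIF-5A (0.40), Aats-met (0.24), eIF5B (0.21), Aats-trp (0.09), eIF2B-delta (0.06) and eIF-4E (0.05). Of the synthetases 19 of 21 were below 0, with a median of -0.26. The lowest autosomal ones were Aats-cys, at 24.0 CPM in females, 17.5 in males and 19.6 in metafemales (log2 -0.44), Aats-asp at 106, 78.7 and 86.8 (-0.42, with 63.9% of its exon bases shared with an antisense RNA gene), and Aats-tyr at 39.4, 30.0 and 38.7 (-0.38).

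The X-linked members allow the comparison with X number. Outside eIF4E-7 they comprised 3 synthetase genes, 3 genes of eIF2 and its exchange factor eIF2B, and eIF5, which triggers GTP hydrolysis by eIF2 at the start codon. Aats-lys, for lysine, had 34.1 CPM in males, 42.6 in females and 63.6 in metafemales. Aats-his, for histidine, had 32.9, 46.3 and 56.3. Both stood in the order of X number, and Aats-lys had the larger step from females to metafemales (1.49-fold, 1.46 to 1.53, against 1.22-fold, 1.19 to 1.25). Aats-arg, for arginine, had 21.3 CPM in males, 30.7 in females and 28.1 in metafemales, so that metafemales were 1.09-fold below females as deposited (1.06 to 1.13), a sign that both other scalings turned (log2 0.28 and 0.32). eIF-2alpha, the regulatory subunit whose phosphorylation lowers initiation, had 55.6, 73.8 and 72.4 CPM, and females and metafemales did not differ beyond counting error as deposited (ratio 0.981, 0.961 to 1.002), while the log2 ratio of -0.03 turned to 0.38 and 0.43 with the other scalings. It shares 12.6% of its exon bases with the antisense gene rngo, which had 69.2, 81.8 and 106 CPM. eIF5 had 101, 139.8 and 119.7 CPM, and its metafemale to female log2 ratio of -0.22 turned to 0.19 and 0.23 with the other scalings. Of its exon bases 80.8% are shared with CG46312 on the same strand.

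All 7 of these genes were lower in males than in females, with a median of -0.40. Of all X-linked genes 31.2% were above 0 in this comparison, and their median was -0.19. For autosomal members outside the 5 male-high genes the median was -0.19 and 35 of 41 were below 0. Of all autosomal genes 49.1% were above 0, and their median was -0.01. These values of all genes keep male-high genes, so their like sets are all 8 X-linked and all 45 autosomal members. The medians of these sets were -0.36 and -0.19, with 1 and 10 above 0. In metafemales against females the 7 had a median of 0.12 with 4 above 0, and the 41 autosomal members a median of -0.14 with 13 above 0. The respective medians of all genes were 0.03 and -0.29, with 54.2% and 24.0% above 0. In this comparison the X-linked members thus lay near the values of all X-linked genes (all 8 had a median of 0.06). In males against females their median lay lower (-0.36 for all 8, against -0.19). Both scalings raised all of these metafemale values together, to 0.51 and 0.55 for the X-linked and 0.27 and 0.31 for the autosomal members.

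With all 53 members, the X-linked median minus the autosomal median was 0.17 in metafemales against females and -0.17 in males against females. Over all genes these differences were 0.32 and -0.19. Leaving out the 5 male-high genes gave 0.26 and -0.21. Both comparisons share the female column. A difference between 8 and 45 genes has no test here, and its size is close to or below that over all genes.

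The exchange factor eIF2B, which recycles eIF2 with GTP and is the target of its phosphorylated form, joins both classes in 1 complex. Its X-linked subunit genes were higher in metafemales than in females: eIF2B-beta had 17.5 CPM in males, 18.9 in females and 20.6 in metafemales (1.09-fold, 1.05 to 1.13), and the catalytic eIF2B-epsilon had 12.9, 13.7 and 17.05 (1.24-fold, 1.18 to 1.30). Its autosomal subunit genes were all lower as deposited, although the sign for eIF2B-gamma turned with both other scalings. eIF2B-alpha had 8.35 CPM in males, 10.3 in females and 7.08 in metafemales (ratio 0.686, 0.646 to 0.729). eIF2B-gamma had 10.4, 12.6 and 9.84 (0.781, 0.740 to 0.823), and eIF2B-delta had 27.5, 26.4 and 18.7 (0.710, 0.683 to 0.737). The intervals of the X-linked and the autosomal subunits, which cover counting error only, did not overlap in metafemales against females. How often other X-linked and autosomal genes lie apart in this way was not counted, so the lack of overlap is a description. All X-linked genes had a median log2 ratio of 0.03 and all autosomal genes of -0.29 in this comparison. Within their own class, beta and epsilon were above 58.7% and 70.3% of genes. The autosomal alpha, gamma and delta were above 36.7%, 47.3% and 37.5% of autosomal genes. With the other scalings the log2 ratios were 0.51 and 0.55 for beta, 0.68 and 0.72 for epsilon, and between -0.12 and 0.09 for the autosomal subunits. Scaling moves genes at these levels by nearly the same amount, so the gap between the classes of subunits stays by construction.

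In eIF2 itself the X-linked eIF-2alpha was at 0.981 and the autosomal eIF-2beta at 0.897 (0.876 to 0.918). eIF-2beta had 55.4 CPM in males, 60.6 in females and 54.3 in metafemales. The autosomal eIF2gamma, listed as Su(var)3-9 and outside the name rule, had 64.5, 85.2 and 59.5 CPM, a metafemale to female log2 ratio of -0.51 as deposited. In males against females the classes of eIF2B subunits were not apart: the ratios were 0.926 and 0.940 for beta and epsilon, and 0.809, 0.825 and 1.04 for alpha, gamma and delta. Near the start codon factors, the autosomal eIF-1A, which opens the small subunit for scanning, had 174 CPM in males, 193.9 in females and 109 in metafemales. eIF5B, which joins the large subunit, had 71.9, 62.0 and 57.3.

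**Figure D4:**
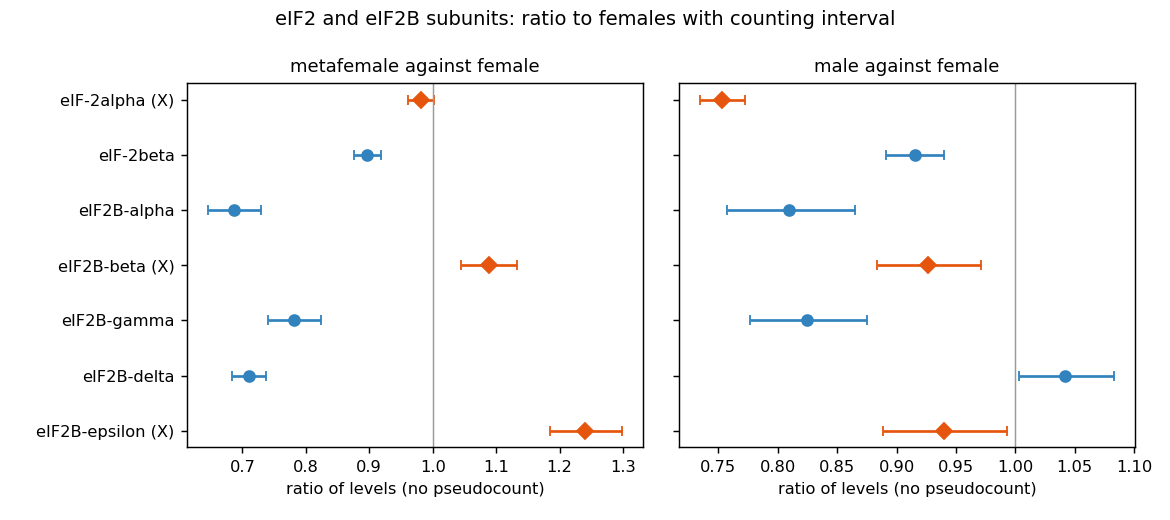
Ratio to females, without pseudocount, of eIF2 and eIF2B subunit genes in metafemales and males, with 95% counting intervals, diamonds for X-linked and circles for autosomal genes. In metafemales the X-linked eIF2B-beta and eIF2B-epsilon lie above 1 and the 3 autosomal eIF2B subunits below it as deposited, of which eIF2B-gamma turns above 1 when rescaled.

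The order of the 3 levels was compared with that in all genes, as deposited and without a test. The order male, female, metafemale, inverse to X number, held for 8 of 53 members (15.1%) and for 37.7% of all genes. None of these 8 was X-linked. They were Aats-trp, eIF-4E, eIF4E-4, eIF4E-5, eIF4G2, eIF-5A, eIF2B-delta and eIF5B. For eIF4E-4 and eIF4E-5, kept through the male value alone, males had to be highest. The order metafemale, female, male held for 16 members (30.2%), 4 of them X-linked, and for 20.2% of all genes. Females were highest in 26 members (49.1%; all genes 33.5%) and lowest in 3. The split between these last classes depends on scaling. With median-of-ratios and autosomal scaling, metafemale, female, male held for 34 and 35 members. Females were highest in 8 and 7, and the inverse order held for 6 under both. For all genes the orders were counted as deposited only, so the rescaled counts have no share of all genes to be set against.

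Metafemales against males, the widest step in X number, had 0 of 53 members at least 2-fold higher and 6 lower, against 8.61% and 28.6% of all kept genes. The 6 were eIF-5A and the 5 genes high in males. Of these, eIF4E-3, eIF4E-4, eIF4E-5 and eIF4E-7 were kept through the male value alone and had to differ. With median-of-ratios scaling 5 members were higher and 6 lower, against 14.8% and 20.7% of all genes. With autosomal scaling 8 and 5 were, against 16.8% and 19.4%, so that the share of higher members lay near that of all genes. The median was 0.14, above that of all genes (-0.40), and 18 of 21 synthetases were above 0, where 32.1% of all genes were. All X-linked members but eIF4E-7, 7 of 8, were above 0 (59.7% of all X-linked genes). So were 23 of all 45 autosomal ones (26.9% of all autosomal genes). The 5 highest were Aats-lys (log2 0.88), Aats-his (0.76), eIF4G (0.65), Ef1gamma (0.63) and Aats-ala-m (0.60).

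Transcript length was related to the metafemale to female ratio of members as well. Across the 48 members outside the 5 male-high genes, the metafemale to female log2 ratio correlated with the length of the longest transcript in the Release 6 annotation (Pearson r = 0.48 with log2 length, Spearman rho = 0.47). This is a description over genes that share the same libraries. Over all 53 members rho was 0.35. Over all genes rho was 0.15, and 0.22 without those high in males by the same rule. In males against females rho was -0.02 over the 48 members, against -0.105 over all genes chosen in the same way, and -0.13 over all 53 members, against -0.21 over all genes. eIF-5A, whose longest transcript has 752 bases, was lowest, and eIF4G, with 6335 bases, among the highest. The part of length in the differences between members was not tested.

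**Figure D5:**
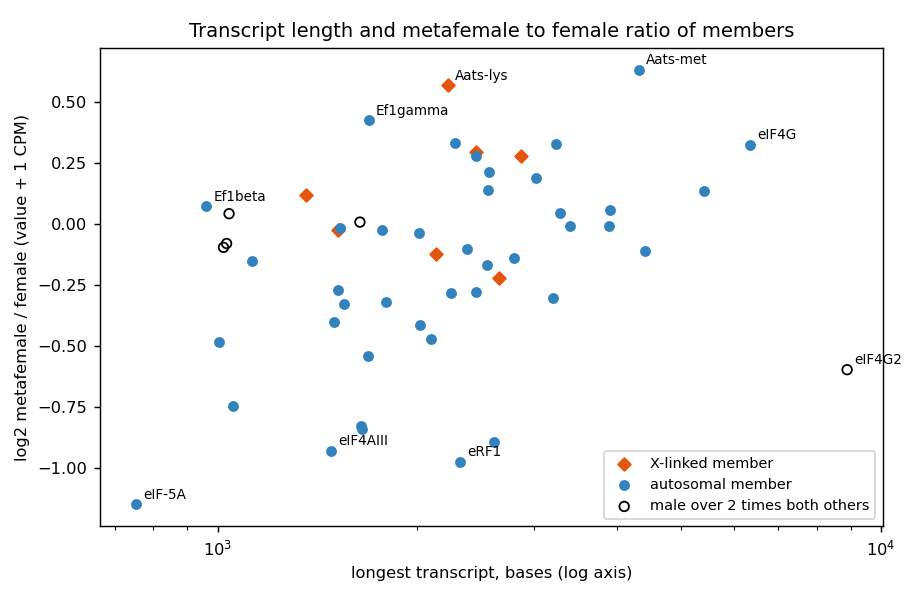
Metafemale to female log2 ratio (value + 1 CPM) of each member against the length of its longest transcript in bases on a log axis, with diamonds for X-linked and filled circles for autosomal members and open circles for the 5 genes high in males. Short members such as eIF-5A tend to lie low, with eRF1 (2321 bases) and Ef1beta (960 bases) away from this trend.

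Other genes of the pathway, found by their current symbols outside the name rule, had a similar median. At 2-fold, 0 of 43 such genes had more signal and 3 had less in metafemales than in females, against 4.81% and 10.9% of all genes, around a median of -0.08 (0.25 and 0.29 when rescaled). The 3 were eIF1 (CG17737 in the tables), a start codon factor, with 149 CPM in females, 205 in males and 64.8 in metafemales, then eIF3k, an eIF3 subunit gene (CG10306), with 119, 130 and 53.6, and eEF1delta, with 118, 101 and 58.4. None of the 3 stayed past 2-fold under either other scaling. eEF2 (Ef2b), which moves the ribosome along the mRNA, had 1967, 1635 and 2493 CPM, and eRF3 (Elf), the partner of eRF1, had 95.1, 97.1 and 83.5.

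In males 7 of the 43 passed 2-fold upward and 0 downward, near the 15.3% and 1.96% of all genes. Of the 7, eIF3d2, eIF3g2, eIF3f2 and eIF4H2 reached the minimum through the male value alone and had to differ. They included second genes of eIF3 subunits, eIF3d2 (CG4810), with 0.0626 CPM in females, 15.4 in males and 0.0212 in metafemales, eIF3g2 (CG10881), with 0.104, 6.65 and 0.218, and eIF3f2 (CG8335), with 0.0418, 5.22 and 0.0149. eIF4H2 (CG1340) had 0.109, 32.2 and 0.0596. The mitochondrial synthetase genes TrpRS-m (CG7441), with 4.17, 44.5 and 6.30, ValRS-m (CG5660), with 1.83, 10.5 and 1.85, and CysRS-m (CG8257), with 4.72, 15.0 and 4.58, completed the 7. As a description, male-high genes in this list belonged to eIF3, eIF4H and the mitochondrial synthetases, and in the name-rule list to cap-binding factors and their scaffold. Both counts were near or below the share of all genes, and most of these genes were kept by their male value alone. No contrast between the lists is drawn from them.

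The list of translation control held 14 names, of which Nat1 matched an X-linked gene whose current symbol is Naa15-16, another gene than the regulator intended. Of the 13 others, 0 were 2-fold apart between metafemales and females under any of the scalings. As deposited 4.81% of all genes were higher and 10.9% lower. As deposited, the median of the 13 was -0.21, close to that of all genes (-0.22). When rescaled it was 0.19 and 0.24, above the 0.01 and 0.03 of all genes. Thor, the repressor that binds eIF-4E, had 409.6 CPM in females, 307 in males and 239.7 in metafemales (log2 -0.77 in metafemales against females). Lk6, the kinase of eIF-4E, had 278, 196 and 403 (0.53). In males cup, a germline repressor that binds eIF-4E, was the 1 gene of the 13 at least 2-fold higher, at 62.3 CPM against 7.19 in females. Of all genes 15.3% were 2-fold higher in males. The ribosomal protein genes, for comparison, had a metafemale to female median of -0.68 over 88 genes, which stayed below 0 when rescaled (-0.28 and -0.23), against -0.10 in the translation factors and synthetases.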

How the data were processed

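Per the labels, RNA of 3 biological repeats per group was extracted with TRIzol and made into libraries with a TruSeq RNA kit. The submitters' processing notes name TopHat, HTSeq and the build dm3, and give no versions. Which annotation was used, and whether strand was, is not given in the sources used here. Values were deposited by the authors as fractions of all transcript counts, with 1 column per group over 3698 X-linked and 19040 autosomal transcripts. They were multiplied by 1000000 to CPM. Below 0.05 CPM, 100% of values were whole-number sums of 3 steps per column, so each column was read as the mean of 3 libraries, whose totals follow from the steps. Effective depths of 226, 169 and 269 M counts (M stands for 1000000) (female, male, metafemale) gave exact binomial intervals on ratios, with Poisson intervals on levels. Without molecular identifiers, reads are not separate molecules, and these intervals cover counting error only. The level that 3 counts give is 0.0133, 0.0178 and 0.0112 CPM.

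Planned count tests, fits without 1 repeat and repeat blocks need a column per repeat and were not run. No p-value across genes is given. Computation used Python 3.11.15 with pandas 2.3.3 and SciPy 1.17.1, and step recovery and calls were tested on simulated data. Current symbols and arms came from RefSeq Release 6 by accession (53 members) or name (1). Since its build differs from dm3, no coordinates are given. Transcript lengths are from its Ensembl annotation. In it 23 members share exon bases with another gene, 6 of them at least 10% (Aats-asp, Aats-glupro, Aats-ser, eIF-2alpha, eIF-3p40 and eIF5). With strand use unknown, their values may hold reads of the overlapping gene. No sequences are shown. Of 24 members with several transcripts, Aats-trp had log2 ratios that differed by 0.29 between transcripts (metafemale against female). Among the others the largest gap was 0.05 in that comparison, 0.06 in males against females and 0.10 in metafemales against males (eIF-4B). Members and lists were chosen with earlier results of these data known. The genes named are all X-linked members, those past 2-fold, the 6 with the highest mean CPM, the 3 highest and 3 lowest autosomal members per comparison, and paralog groups. Beyond this rule, members were named with their role group or chosen after their values were seen.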

Additional observations from a re-analysis of the deposited data

How the results depend on the processing

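Alternatives were a pseudocount of 0.1 CPM, no minimum, a minimum of 10 CPM, median-of-ratios and autosomal scaling, sums over transcripts and a 1.5-fold threshold. Leaving out the 5 male-high genes, and scaling for the order of levels, were added after seeing the data. In metafemales against females the median of members turned positive with both scalings (0.27 and 0.31), autosomal scaling gave 1 higher member (Aats-lys), and both gave 0 lower ones. At 1.5-fold 1 was higher and 8 lower. The X-linked minus autosomal median was 0.24 with 0.1 CPM, 0.28 at 10 CPM and 0.26 without the male-high genes. In males against females, 1 member was higher at 10 CPM and 0 without the male-high genes. In metafemales against males, 5 and 8 members were higher with the median-of-ratios and autosomal scalings and 5 at 1.5-fold, while 2 were lower at 10 CPM, 12 at 1.5-fold and 1 without the male-high genes. There the median was 0.56 and 0.66 with the scalings, and the X-linked minus autosomal median 0.39 with the first of them. With the 2 scalings the order metafemale, female, male held for 34 and 35 members, with no such count for all genes. Females were highest in 8 and 7 and lowest in 5 and 5. Of 30 named members, 9 and 10 changed from a negative to a positive log2 ratio to females in metafemales, 3 and 3 did so against males, and 0 changed sign in males against females. Scaling applies 1 factor per group to all members, but with 1 CPM added the shift of a log2 ratio depends on level. In metafemales against females, median-of-ratios scaling moved eIF4E-4 from -0.08 to -0.07 and eIF-5A from -1.15 to -0.74. The cause of the other shifts was not tested.

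No paired analysis was possible because the tables hold 1 pooled column per group, and for the same reason no fit leaves out a repeat. Depth limits the eIF4E paralogs in females and metafemales, where levels rest on 4 to 22 counts for eIF4E-4, eIF4E-5 and eIF4E-7.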
